A study of Mus musculus with 6 samples.

Results

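Kinesins are the motor proteins that walk along microtubules, and 40 genes of the family, heavy and light chains alike, were followed in dorsal root ganglia of dt27J and WT mice. They were taken by gene symbol: every non-control probe on the array whose transcript accession belongs to a listed symbol was used. Probes were found for 35 of the 40 genes, 67 probes in all among 41086 with a value, and 57 of them, for 32 genes, were bright enough to be tested among 26248 tested probes. The genes fall into 15 transport kinesins (the Kif1, Kif3, Kif5 and Kif21 motors and the Klc light chains), 9 mitotic kinesins (Kif2c, Kif4, Kif11, Kif15, Kif18a, Kif20a, Kif20b, Kif22 and Kif23) and 16 others. All 15 transport genes and all 9 mitotic genes were tested, and the brightest tested probe of each was well above background on all 6 arrays. Kif7, Kif14, Kif26b, Kifc1 and Kifc2 had no named probe here, and Kif13b, Kif17 and Kif27 were too dim to be tested, so 8 of the 16 others have a value.

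The samples are whole ganglia of 3 dt27J animals and of 3 WT littermate controls, all at postnatal day 4 and on the C57BL/6 background, with 1 single-colour array per animal. The dt27J allele is a mutation of Dst, which encodes the cytoskeletal linker dystonin, and the study takes this age as a stage before the disease shows, so the comparison asks what differs before symptoms. The animals came from 2 litters, and no agent or transgene is named. The labels carry 2 dates, which equal the scan dates and the slides in the file headers: dt27J 1, dt27J 2, WT 1 and WT 2 share the first, and dt27J 3 and WT 3 the second. Neither the link between dates and litters, nor the zygosity, nor the altered stretch of Dst is given in the sources at hand.

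Between 63.1% and 71.5% of the probes of an array were well above background, and the number of arrays limits the precision. The brightest Dst probe stood at -1.63, -1.77 and -0.96 on the dt27J arrays and at 1.15, 1.44 and 1.10 on the WT arrays, on a log2 scale relative to the 75th percentile of each array, and it fell by 2.68 (SE 0.26, adjusted p = 0.0341, limma). All values below are on that scale unless stated otherwise. Xist exceeded the Y-linked Ddx3y on 2 of 3 dt27J arrays and on 1 of 3 WT arrays, so the sexes are not balanced between the genotypes. The ganglia carried their defining markers, with all 13 sensory neuron genes measured well above background on every array. The WT arrays of the first date also carried spinal cord and central glia transcripts: the summed signal of 15 such genes, in units of the 75th percentile, was 2.09, 1.64 and 2.10 on the dt27J arrays and 30.2, 24.0 and 2.24 on WT 1, WT 2 and WT 3. Of these 15 genes, 10, 7 and 14 were well above background on the dt27J arrays and 14, 14 and 12 on the WT arrays, and each was so on at least 1 array.

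Kinesins divide by task. Sensory neurons send axons over long distances and depend on plus-end motors to carry vesicles, mitochondria and RNA outward: kinesin-1 (Kif5 heavy chains with Klc light chains), the heteromeric kinesin-2 (Kif3) and the kinesin-3 motors (Kif1). Other kinesins build the spindle, move chromosomes and complete the cleavage furrow in dividing cells, and several of these, Kif11, Kif15 and Kif23 among them, are also known to act on microtubules in postmitotic neurons. Kinesin-4 motors of the Kif21 type also restrain microtubule growth.

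Transport and mitotic kinesins lay on opposite sides of their WT levels in dt27J ganglia. Each gene was represented by its brightest tested probe and centred on its mean over the 6 arrays. The mean of the 15 transport genes lay at -0.27, -0.24 and -0.03 on dt27J 1, 2 and 3 and at 0.20, 0.16 and 0.18 on WT 1, 2 and 3. The mean of the 9 mitotic genes lay at 0.41, 0.37 and 0.48 on the dt27J arrays and at -0.51, -0.52 and -0.23 on the WT arrays. Neither class mean overlapped between the genotypes.

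**Figure D1:**
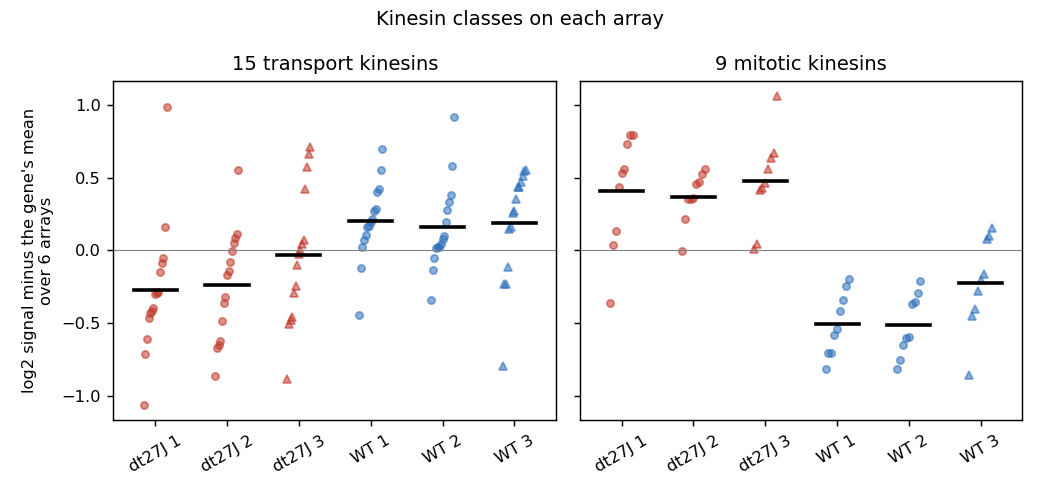
Log2 signal of each gene minus its mean over the 6 arrays (vertical axis) on every array, for the 15 transport and the 9 mitotic kinesins. Points are genes, triangles mark arrays of the second label date and black bars are the class means, which run from -0.27 to -0.03 on dt27J and from 0.16 to 0.20 on WT arrays for transport, and from 0.37 to 0.48 on dt27J and from -0.52 to -0.23 on WT arrays for mitotic kinesins.

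Transport minus mitotic came to -0.68, -0.60 and -0.51 on the dt27J arrays and to 0.70, 0.68 and 0.41 on the WT arrays, which is -0.60 ± 0.09 against 0.60 ± 0.16 (mean ± SD, n = 3 each). The difference between genotypes was -1.20 on the log2 scale, which a constant shift of an array leaves as it is. It was -1.23 after quantile normalization, -1.04 on the authors' deposited values and -0.69 with normexp background correction, under which the mitotic median was 0.33 in place of 0.88. Within the first date it was -1.33 and within the second, with 1 array per genotype, -0.92. The classes were contrasted with earlier results of these data known, so these values are a description and carry no test.

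Among the mitotic kinesins, Kif23 and Kif2c rose and the other 7 genes had positive fold changes without passing the test; 47.6% of all genes were positive. By gene, 2 of 9 were higher at an adjusted p under 0.05, and 1.35% of the 13675 genes tested by their brightest probe were higher by the same rule (limma, Benjamini-Hochberg adjustment over all tested probes). The median fold change of the 9 was 0.88, against -0.03 over all 13675 genes, and the values ran from 0.37 for Kif18a to 1.28 for Kif23. In 7 of the 9 every dt27J array lay above every WT array, which held for 13.6% of all genes. At an unadjusted p under 0.05, 8 of 9 were higher, against 12.8% of all genes. Of their 12 tested probes 11 were positive, where 46.4% of all tested probes were.

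Kif23 encodes MKLP1, the motor of the centralspindlin complex that organises the midzone and is needed for cytokinesis. Its brightest probe read -0.62, -0.86 and -0.86 in dt27J ganglia and -2.13, -2.18 and -1.87 in WT ganglia. The groups lay apart by more than the spread within either, and the rise was 1.28 (SE 0.20, 2.43-fold, adjusted p = 0.0442, limma). The other probe of Kif23 read -1.04, -1.22 and -1.49 in dt27J ganglia and -2.29, -2.33 and -2.26 in WT ganglia. It rose by 1.05 (SE 0.20, adjusted p = 0.0483, limma), so both probes of this gene passed. Within the second date alone the brightest probe was higher by 1.01 and the other by 0.78.

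Kif2c encodes MCAK, which takes microtubules apart at their ends and corrects faulty attachments at kinetochores. It read -2.58, -2.96 and -2.65 in dt27J ganglia and -4.13, -3.96 and -3.59 in WT ganglia. All dt27J arrays lay above all WT arrays, with a rise of 1.16 (SE 0.21, 2.24-fold, adjusted p = 0.0472, limma). Both dates showed it, at 1.27 in the first and 0.94 in the second.

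Kif4, a chromokinesin that binds chromosome arms and shortens the anaphase midzone, came close to the threshold on both of its probes. The brightest read 0.86, 0.66 and 0.74 in dt27J ganglia and -0.24, -0.30 and 0.10 in WT ganglia, a difference of 0.90 (SE 0.20, adjusted p = 0.0578, limma). The second probe differed by 0.95 (SE 0.21, adjusted p = 0.0573, limma). Neither set of arrays overlapped. Kif4 lies on the X chromosome, and the part of the unequal sexes in its difference was not tested.

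The remaining mitotic motors differed by smaller or less even amounts. Kif22, the second chromokinesin, stood at 0.64 (SE 0.19), and Kif11, the motor that slides spindle poles apart, at 0.77 (SE 0.23). Kif20b, a motor of late cytokinesis, stood at 0.61 on its brightest probe and at -0.09 on a dimmer one. Kif18a, which dampens chromosome movement at metaphase, stood at 0.37 (SE 0.26) with overlapping groups. Kif15, which backs up Kif11 at the spindle, and Kif20a, a motor of the cleavage furrow, had uneven differences over the dates: Kif15 differed by 0.36 in the first and by 1.91 in the second, and Kif20a by 1.36 and by -0.07. None of these 6 genes passed, with adjusted p from 0.0941 to 0.379 on the brightest probes (limma).

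Most promoter windows of the mitotic kinesins hold a sequence element that was not itself used to choose the genes. The class is one of cell division, so the element is not independent of that choice. Genes expressed late in the cell cycle often carry a cell cycle homology region, or CHR, with the letters TTTGAA, which the DREAM and MuvB complexes bind, and near it a CCAAT box, which NF-Y binds. Both were searched on both strands (TTTGAA or its reverse TTCAAA for the CHR, and CCAAT or its reverse ATTGG for the box) in RefSeq promoter windows of build GRCm38.p6, from 250 bases before to 50 bases from the start on. The 2 motifs can overlap by at most 1 base. Windows were found for 8 of 9 mitotic, 11 of 15 transport and 13 of 16 other kinesin genes, not for Kif5a, Kif5b, Kif13b, Kif20a, Kif21b, Kifc2, Kifc3 and Klc2. A CHR was found in 7 of 8 mitotic windows (87.5%) and in 1 of 13 transport windows (7.69%). It was found in 4 of 15 other kinesin windows (26.7%) and in 17.9% of all 32851 windows. Both motifs were found in 4 of the 8 mitotic windows and in 0 of the 13 transport windows. They were found in 4 of the 15 other kinesin windows and in 6.95% of all windows. A CCAAT box, with or without a CHR, was found in 4 of 8 mitotic and 6 of 13 transport windows, and in 37.4% of all. The median share of G and C bases was 67% in transport, 61.5% in mitotic and 52.67% in all windows. The part of this base content in the matches was not tested. A match is a description of these letters and not a site shown to be bound.

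The stretches below run 5′ to 3′ along the gene, from 70 bases before the annotated start through the first 30 bases of the transcript, with matches in capitals. They are shown because 6 of the 7 mitotic windows with a CHR hold one in this stretch. Kif23 is at chr9:61946770-61946869 on the minus strand, where the CCAAT box and the CHR straddle the start. Kif4 is at chrX:100625995-100626094 on the plus strand and has the same pair in the same order. Kif11 (chr19:37376312-37376411 on the plus strand) and Kif22 (chr7:127042391-127042490 on the minus strand) hold a CCAAT box upstream of a CHR. Kif15 is at chr9:122951011-122951110 on the plus strand and Kif20b, with 2 CHR matches end to end, at chr19:34922288-34922387 on the plus strand. For Kif2c the match began at position -103 from a start that lies 3852 bases inside the outermost annotated start of the gene, so it falls outside the stretch, and Kif18a had no match.
Kif23: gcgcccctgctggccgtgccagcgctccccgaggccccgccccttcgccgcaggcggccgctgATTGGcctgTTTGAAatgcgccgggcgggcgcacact
Kif4: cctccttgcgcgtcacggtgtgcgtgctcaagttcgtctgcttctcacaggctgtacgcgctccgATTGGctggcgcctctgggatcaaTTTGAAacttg
Kif11: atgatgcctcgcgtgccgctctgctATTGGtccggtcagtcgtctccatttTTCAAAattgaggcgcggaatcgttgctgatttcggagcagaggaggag
Kif15: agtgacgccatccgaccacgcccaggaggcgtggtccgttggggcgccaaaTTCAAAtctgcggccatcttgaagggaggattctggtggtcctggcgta
Kif22: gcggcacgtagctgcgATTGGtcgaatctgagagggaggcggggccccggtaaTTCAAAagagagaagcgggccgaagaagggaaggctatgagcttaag
Kif20b: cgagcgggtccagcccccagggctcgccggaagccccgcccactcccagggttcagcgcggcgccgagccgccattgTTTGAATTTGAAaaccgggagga

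Some transport windows hold a match in this stretch: a CHR in a window of Kif1a, and a CCAAT box in Kif3a, Kif3b and Klc4. For comparison, the same stretch is shown for 2 transport kinesins that have neither motif in it. They are Kif1c, the transport gene that stood higher in dt27J ganglia, at chr11:70700478-70700577 on the plus strand, and Kif5c, a neuronal kinesin-1 chain that stood lower, at chr2:49619216-49619315 on the plus strand.
Kif1c: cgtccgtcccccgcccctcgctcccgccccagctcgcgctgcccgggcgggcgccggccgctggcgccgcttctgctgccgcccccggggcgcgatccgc
Kif5c: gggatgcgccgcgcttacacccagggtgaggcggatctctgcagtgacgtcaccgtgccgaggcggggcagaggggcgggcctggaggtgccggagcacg

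The transport kinesins stood lower by a smaller margin, and by gene 0 of 15 passed an adjusted p of 0.05 (limma), where 1.52% of all genes were lower and 2.87% passed in either direction. Their median fold change was -0.36, against -0.03 over all genes, and 14 of 15 were negative, against 52.4% of all genes. At an unadjusted p under 0.05, 4 were lower and 1 was higher, where 14.8% and 12.8% of all genes were. All dt27J arrays lay below all WT arrays in 5 of 15 genes and above them in 1, beside 16.3% and 13.6% of all genes. Counted by probe, 1 of 30 fell (Kif5a) and 1 rose (Kif1c), beside 1.88% and 1.31% of all tested probes, and 26 of 30 were negative, beside 53.6%. Over the whole family 5 of 57 probes passed in either direction, beside 3.19% of all tested probes. These are bulk samples, in which fewer cells of a type and less RNA per cell cannot be told apart.

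**Figure D2:**
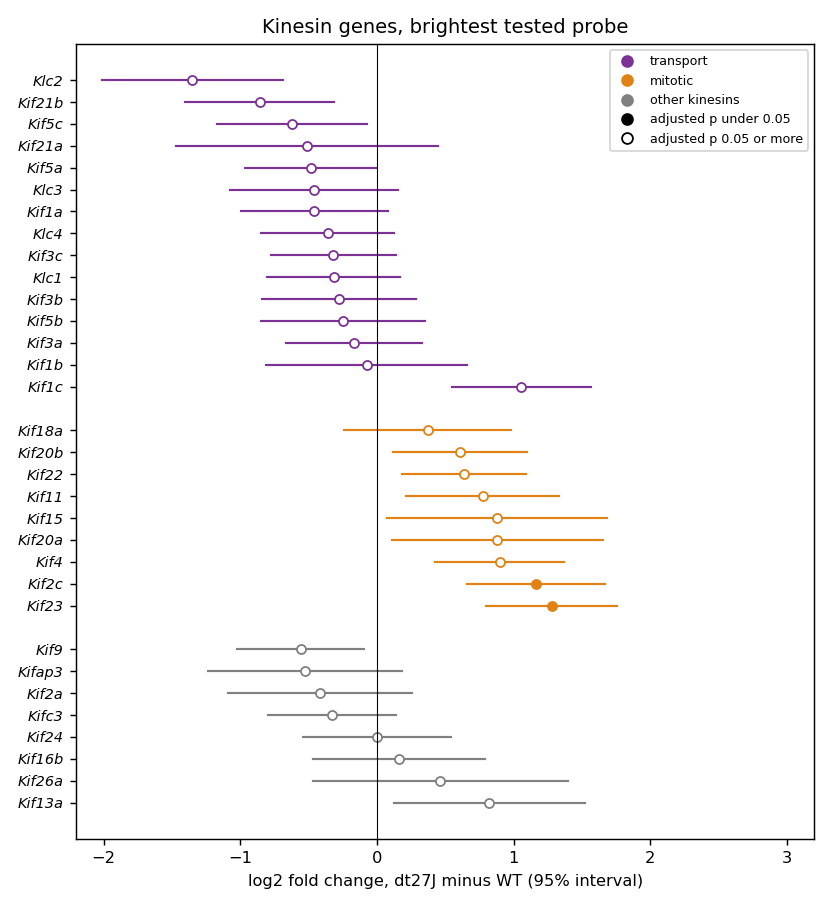
Log2 fold change, dt27J minus WT (horizontal axis), of the 32 tested kinesin genes on their brightest probe, with the 95% interval of the moderated fit. Filled points passed an adjusted p of 0.05: they are Kif23 (1.28) and Kif2c (1.16), while the transport genes run from -1.35 for Klc2 to 1.05 for Kif1c.

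Kinesin-1 is the main carrier of fast axonal transport. Kif5a, its neuronal heavy chain, had 2 probes that were both lower. The probe A_52_P93042 read -3.44, -2.39 and -2.19 in dt27J ganglia and -0.89, -1.13 and -0.63 in WT ganglia. Every dt27J array lay more than 1 log2 unit below every WT array, and the probe fell by 1.79 (SE 0.31, 3.46-fold, adjusted p = 0.0472, limma), to 28.9% of the WT signal. The brightest Kif5a probe read 7.32, 7.48 and 7.33 in dt27J ganglia and 7.89, 7.64 and 8.05 in WT ganglia. It was also lower on every dt27J array, but by only 0.49 (SE 0.20, adjusted p = 0.177, limma), and the 2 probes carry different transcript accessions in the file.

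Kif5c, the other heavy chain enriched in neurons, followed the same pattern without passing. Its brightest probe read 5.40, 5.68 and 6.01 in dt27J ganglia and 6.41, 6.39 and 6.16 in WT ganglia, a difference of -0.62 (SE 0.23). Its second probe stood at -1.33 (SE 0.31, adjusted p = 0.0620, limma), and both probes kept the groups apart. Kif5b, the heavy chain made in nearly all cells, had no common direction, with -0.25 on its brightest probe and 0.46 on the other.

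The light chains couple kinesin-1 to its cargo. Klc2 had the lowest fold change of any kinesin on a brightest probe and read -2.87, -2.67 and -1.91 in dt27J ganglia and -1.26, -0.89 and -1.26 in WT ganglia. The groups did not overlap, and the difference was -1.35 (SE 0.28, adjusted p = 0.0526, limma), short of the threshold, with -1.70 in the first date and -0.66 in the second. Klc1, Klc3 and Klc4 stood between -0.46 and -0.32. A second Klc1 probe, at -0.86, spread widely among dt27J arrays, with 0.81, -0.07 and 2.95 there and 1.78, 2.37 and 2.11 in WT ganglia.

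Kif3a, Kif3b and Kif3c, which form the kinesin-2 motors of axons and cilia, stood at -0.17, -0.28 and -0.32 with overlapping groups. The second probes of Kif3a and Kif3c stood at -0.57 and -1.26. Kif1a, the carrier of synaptic vesicle precursors, stood at -0.46 (SE 0.23) on its brightest probe and at -0.81 (SE 0.20) on the other. Kif1b, which carries mitochondria and vesicle precursors, stood at -0.08 on its brightest probe and at -0.20, 0.41 and -1.29 on the others. The Kif21 motors stood at -0.51 for Kif21a, with -0.10 on its second probe, and at -0.86 (SE 0.23) for Kif21b. Kif21b read 2.66, 3.05 and 2.18 in dt27J ganglia and 3.76, 3.39 and 3.31 in WT ganglia on its brightest probe (adjusted p = 0.0759, limma), and its second probe stood at -1.57.

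Kif1c was the exception among the transport genes, and its probes did not agree. Kif1c is a widely expressed kinesin-3 motor of vesicles and RNA. The probe A_52_P113465 read 0.72, 0.11 and 0.32 in dt27J ganglia and -0.86, -0.72 and -1.04 in WT ganglia, and rose by 1.26 (SE 0.23, 2.39-fold, adjusted p = 0.0472, limma). The brightest probe, A_51_P217382, read 1.72, 1.28 and 0.78 in dt27J ganglia and 0.29, 0.39 and -0.06 in WT ganglia, a difference of 1.05 (SE 0.21, adjusted p = 0.0526, limma). The other 2 probes ran the opposite way, at -0.88 (SE 0.29) and -1.15 (SE 0.43). All 4 probes carry the same transcript accession in the file, and none of the 4 has its sequence there, so which parts of the transcript they read is not known here.

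**Figure D3:**
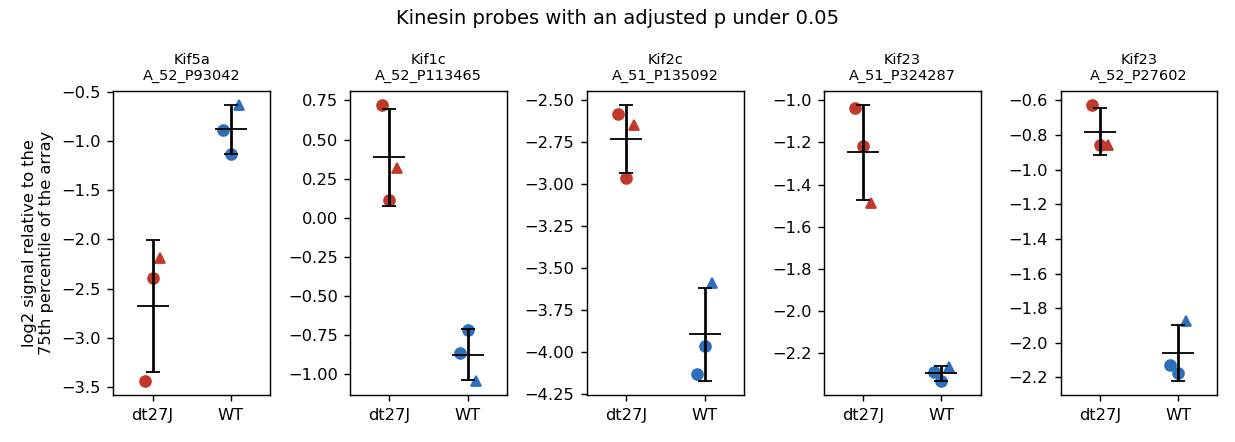
Log2 signal relative to the 75th percentile of the array (vertical axis, a scale of its own in each panel) for the 5 kinesin probes past an adjusted p of 0.05, with dt27J left of WT. Points are single arrays, triangles belong to the second label date, and bars give the mean ± SD (n = 3). The groups are separate in every panel, lower in dt27J for Kif5a and higher for Kif1c, Kif2c and both Kif23 probes.

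Disagreement between probes was common in the family. Of 19 kinesin genes with at least 2 tested probes, 6 had probes of both signs: Kif1b, Kif1c, Kif5b, Kif20b, Kif26a and Kif2a. The widest span was that of Kif1c, from -1.15 to 1.26. Every further probe stood below the brightest one in 7 of 11 transport, 2 of 3 mitotic and 3 of 5 other kinesin genes, among them Kif5a (-1.79 beside -0.49) and Kif3c (-1.26 beside -0.32). Averaging all tested probes of a gene before the fit gave 3 transport genes past the threshold in place of 0. In that fit 920 of 20542 genes and unnamed probes passed (limma). The transport median was then -0.46, and the mitotic count stayed at 2.

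**Figure D4:**
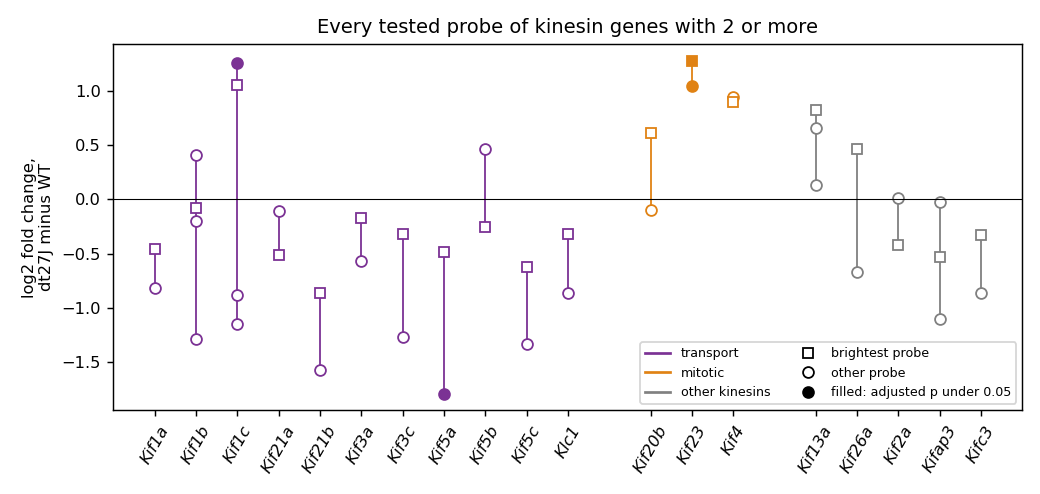
Log2 fold change, dt27J minus WT (vertical axis), of every tested probe of the 19 kinesin genes with at least 2. Squares are the brightest probes, filled symbols passed an adjusted p of 0.05, and vertical lines join the probes of a gene: Kif1c spans from -1.15 to 1.26, whereas both Kif4 probes stand at 0.90 and 0.95.

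The other 8 tested kinesins had no common direction, with 4 positive and 4 negative values and a median of -0.16. By the adjusted threshold 0 passed (limma), where 2.87% of all genes did. Unadjusted, 1 was higher and 1 lower at p under 0.05 (limma), beside 12.8% and 14.8% of all genes. Kif13a, a kinesin-3 motor of endosomal and Golgi-derived vesicles, stood at 0.82 (SE 0.29) on its brightest probe, with 0.44 in the first date and 1.59 in the second, and at 0.66 and 0.14 on the others. Kif9, a motor linked to cilia and flagella, stood at -0.56 (SE 0.20) with separate groups. Kifap3, the non-motor subunit that binds the Kif3 motor to its cargo, had 3 negative probes, at -0.02, -0.53 and -1.10. The last of these read 3.02, 3.52 and 1.74 in dt27J ganglia and 4.00, 3.82 and 3.77 in WT ganglia. Counting Kifap3 as a transport gene gave a transport median of -0.41. Kif2a, which prunes microtubule ends in growing axon branches, stood at -0.41 and 0.02 on its probes, and Kifc3, a minus-end motor, at -0.33 and -0.87. The endosome motor Kif16b stood at 0.16, the centriole kinesin Kif24 at 0.00 and Kif26a, which lacks motor activity, at 0.46 and -0.67.

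Partners of the kinesins were read from 2 lists. Of 18 measured cargo adaptors and regulators, 0 passed (limma), where 2.87% of all genes did, and the median was -0.36. Unadjusted, 7 were lower and 1 higher at p under 0.05 (limma), beside 14.8% and 12.8% of all genes. The 3 with the smallest p were Trak2, which links kinesin-1 to mitochondria (1.03, SE 0.22), Grip1, which links it to glutamate receptors (-1.03, SE 0.23), and the calsyntenin gene Clstn2 (-0.87, SE 0.23). Of 23 measured mitotic partners, 2 rose, beside 1.35% of all genes, 23 were positive, beside 47.6%, and the median was 0.79. Their median was 1.01 in the first date and 0.35 in the second, where 6 of 23 were negative. Top2a, the topoisomerase that untangles chromosomes, rose by 1.17 (SE 0.19, adjusted p = 0.0455, limma) and Anln, a scaffold of the cleavage furrow, by 1.43 (SE 0.26, adjusted p = 0.0472, limma). Ndc80, a kinetochore protein, stood at 1.22 (SE 0.26). Of 17 proteins that build or bind the tracks, the neuronal beta-tubulin Tubb4a fell by 1.12 (SE 0.20, adjusted p = 0.0472, limma), with a median of -0.48 over the list. It was the only 1 of the 17 to pass, beside 1.52% of all genes that were lower. The doublecortin family genes Dclk1 and Dcx stood at -1.16 and -0.92. In promoter windows of the mitotic partners a CHR was found in 19 of 23 (82.6%), and in those of the adaptors in 2 of 28 (7.14%).

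Summed markers of several cell types differed between the genotypes too, and their part in the kinesin differences was not tested. The summed signal of 10 pan-neuronal genes was 588 to 747 in dt27J and 754 to 860 in WT ganglia, and that of 13 sensory neuron genes 138 to 217 in dt27J and 231 to 266 in WT ganglia. Such sums weigh the brightest genes most, here Uchl1 (fold change -0.26) and Calca (-0.31). The median fold changes of the 2 lists were -0.45 and -0.58. Of 12 skeletal muscle genes 5 rose (Tcap, Tnnt3, Myog, Mb and Myh1), beside 1.35% of all genes. The summed signal of 23 mitotic partners was 72.1 to 80.2 in dt27J and 40.5 to 60.5 in WT ganglia. Genes of blood vessels summed to 16.6 to 29.7 in dt27J and 10.7 to 14.5 in WT ganglia. Genes of fibroblasts and meninges summed to 876, 949 and 473 on the dt27J arrays and to 341, 299 and 602 on the WT arrays. In the second date, with 1 array per genotype, they were thus lower in dt27J. Macrophage genes summed to 6.68 to 10.7 in dt27J and 5.41 to 6.06 in WT ganglia, and Aif1 rose among 7 genes, beside 1.35% of all genes. Schwann and satellite glia genes summed to 349 to 391 in dt27J and 322 to 500 in WT ganglia. Of these 9 genes, with a median of -0.01, Egr2 and Cdh19 rose, beside 1.35% of all genes. The genes of skeletal muscle summed to 62.9 to 123 in dt27J and 19.8 to 66.9 in WT ganglia. Every gene of the vessel, fibroblast and muscle lists was well above background on all 6 arrays.

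The second date holds a pair of arrays with similar spinal cord sums. Between dt27J 3 and WT 3, where those genes summed to 2.10 and 2.24 and the muscle genes to 93.2 and 66.9, the transport median was -0.40 and the mitotic median 0.63. Between the arrays of the first date, where the spinal cord genes summed to 2.09 and 1.64 in dt27J and to 30.2 and 24.0 in WT ganglia, the medians were -0.44 and 0.76. The means were less alike between dates for transport. The transport class mean differed by -0.44 in the first date and by -0.22 in the second, and the mitotic class mean by 0.90 and 0.70. The part of the spinal cord signal in these values was not tested. Single transport genes were less even: 10 of 15 were negative in the second date and 13 of 15 in the first, beside 8014 and 6580 of all 13675 genes, whose medians were -0.15 and 0.03. In the same dates 8 of 9 and 9 of 9 mitotic genes were positive. Kinesins outside the member genes were less even, and of 4 tested 0 passed (limma), where 2.87% of all genes did. They were not sorted into classes, so the 9 mitotic genes leave them out whatever their role. The median of these 4 was 0.68 in the first date and -0.41 in the second. In the second date 4 of 4 were negative, beside 8014 of all 13675 genes. Cenpe differed by 1.21 and -0.28 in the first and second date, Kif18b by 0.91 and -0.53, and Kif6 by -0.24 and -1.36. Kif3a, Kif3b, Kif21a and Kif1b were lower in the first date and higher in the second. Of 57 kinesin probes, 0 had a genotype difference that itself differed between dates at an adjusted p under 0.05 (interaction term, limma), beside 0.831% of all probes, and 17 did at an unadjusted p under 0.05, beside 27.5%.

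**Figure D5:**
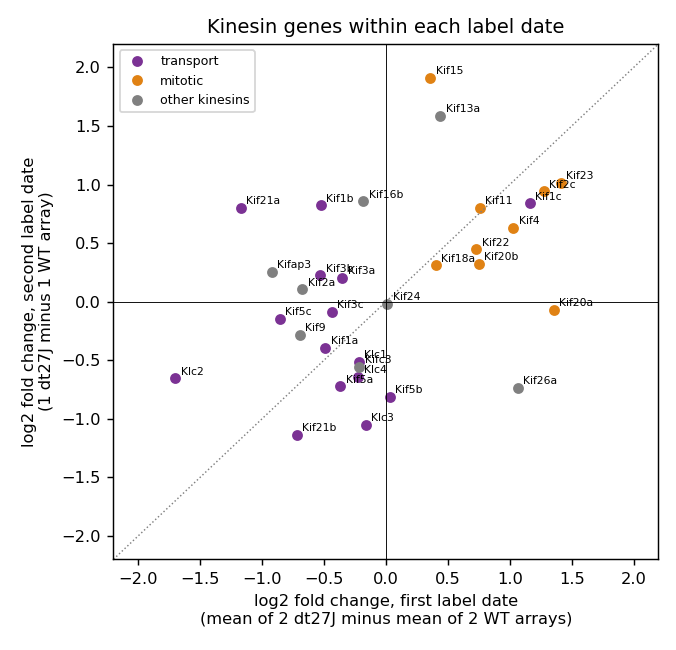
Log2 fold change, dt27J minus WT, of the 32 tested kinesin genes in the first label date (horizontal axis, means of 2 arrays per genotype) against the second (vertical axis, 1 array per genotype), with the dotted line marking equal values. Mitotic genes lie in the upper right, apart from Kif20a (1.36 and -0.07), and transport genes spread over both left quadrants apart from Kif1c and Kif5b, with Kif21a at -1.17 and 0.80.

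The 5 calls lie close to the threshold and rest on each of several arrays. All 5 probes had an adjusted p above 0.05 without WT 1 (0.248), without WT 2 (0.160 to 0.171), without dt27J 1 (0.177 to 0.192) or without dt27J 2 (0.0591 to 0.113), whereas their fold changes kept their direction in each of these runs. The same held for the calls without the label date in the fit (0.0586 to 0.0630) and with normexp background correction (0.0820 to 0.317, limma). Normexp gave smaller fold changes for all 5, with 0.71 and 0.57 for the Kif23 probes, 0.33 for Kif2c, 0.74 for Kif1c and -0.96 for Kif5a. The loss of calls was not particular to kinesins. Of all 26248 tested probes 838 passed in the main fit (limma). The number was 1 without WT 1, 0 without WT 2, 0 without dt27J 1 and 168 without dt27J 2. It was 14 without the label date and 358 with normexp.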

How the data were processed

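The deposited scanner files hold 1-colour intensity values extracted with Agilent Feature Extraction 10.5.1.1, background-subtracted and detrended within each array per the file headers. The authors' deposited value table holds log2 values, centred on the median of each probe over the 6 arrays, as a comparison with the scanner values showed; how its arrays were normalized against each other is not stated here, and it served as an alternative.

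From the processed intensities, control spots and outlier flags were left out, spots of a probe were averaged, and log2 values were taken relative to the 75th percentile of each array. A probe was tested where all 3 arrays of either genotype had it well above background, which left 26248 of 41086. The test was that of limma 3.58.1 in R 4.3.3, with genotype and label date as terms and Benjamini-Hochberg adjustment over all of them at 0.05. The fit was tested on simulated data. Same-numbered samples of the genotypes correlated at 0.219, -0.152 and 0.0625 in their deviations from the group means, and the numbers were not taken as pairs. This check cannot exclude pairing, since dt27J 3 and WT 3, at 0.0625, share a label date. Symbols came from a RefSeq table of build GRCm38.p6 by transcript accession, which named 73.8% of the tested probes. A gene's value is that of its brightest tested probe. Any kinesin could be named; array values were to be given for those past the threshold and otherwise for the 3 transport and 3 mitotic genes with the smallest p, and the 3 genes with the smallest p were to be named in other lists. The array values of Kif5c, Klc1 and Kifap3 were added after they were seen. The kinesins, their classes and the lists of other genes were chosen with earlier results of these data known. Alternatives covered background correction, scaling, the dim-probe filter, blocks, array weights, the authors' values and leaving out each array.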

Additional observations from a re-analysis of the deposited data

Results flagged for a closer look

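On 15 of the 57 tested kinesin probes (26.3%) the dt27J arrays lay on opposite sides of the WT arrays in the 2 label dates, beside 28.9% of all tested probes. The second date holds 1 array per genotype, and 0 of these differences between dates passed an adjusted p of 0.05 in the interaction term of limma. Values are the log2 fold change, dt27J minus WT, of the second date minus that of the first. Among transport kinesins 8 of 30 probes did so. Klc1 had 2.55 on its dimmer probe. Kif21a had 1.97 on its brightest probe, with the smallest adjusted p of the family (0.0547, limma), and 0.93 on the other. Kif1b had 1.35 on its brightest probe and -0.74 on another. Kif3a had 0.55 on its brightest probe and 0.94 on the other, and Kif3b had 0.76. Among mitotic kinesins 1 of 12 probes did so, that of Kif20a at -1.42. Among the other kinesins Kif26a had -1.80, Kifc3 had 1.58 on its dimmer probe, Kifap3 had 1.17 and 0.47, Kif16b had 1.04 and Kif2a had 0.78.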

How the results depend on the processing

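The 5 kinesin probes past the threshold, for Kif23, Kif2c, Kif5a and Kif1c, kept their direction under the alternatives run on single probes, which leave out the mean of all probes of a gene, and the transport minus mitotic difference stayed negative, but the calls depend on the processing. Of all tested probes 838 passed (344 higher, 494 lower), with 5 kinesin probes, 0 transport genes and 2 mitotic genes. No mitotic gene and no kinesin probe passed with the replicate number as a block (2 probes of all passed), without the date block (14 of all), with normexp background correction (358 of all, 261 higher and 97 lower) or with no filter on dim probes (0 of all in limma, 8485 at an unadjusted p under 0.05). Normexp gave a transport median of -0.20, a mitotic median of 0.33 and a difference of -0.69. With high local backgrounds replaced, chosen after seeing the data, normexp gave 733 probes of all. It then gave 2 transport genes, 0 mitotic genes, a mitotic median of 0.46 and a difference of -0.80. Quantile normalization (537 higher, 440 lower of all) gave 2 transport genes, as did the stricter filter (806 of 24240 probes). Median centring (606 higher, 408 lower) gave 1 transport gene, 8 kinesin probes and a transport median of -0.26. The authors' deposited values (614 higher, 561 lower) gave 3 transport genes, 11 kinesin probes, a mitotic median of 0.75 and a difference of -1.04. Array weights, whose estimate did not converge, gave 12199 probes of all, 38 kinesin probes, 9 transport, 7 mitotic and 5 other genes and a transport median of -0.46. The mean of all probes of a gene (920 of 20542 genes and unnamed probes) gave 3 transport genes, a median of -0.46 and a difference of -1.35. The first label date alone, chosen after seeing the data, gave 6805 probes of all, 24 kinesin probes, 4 transport, 6 mitotic and 3 other genes and a difference of -1.33, as did leaving out WT 3 or dt27J 3. The second alone gave a mitotic median of 0.63 and a difference of -0.92. Leaving out 1 array gave 0 to 6805 probes of all, 0 to 24 kinesin probes, 0 to 4 transport, 0 to 6 mitotic and 0 to 3 other genes, transport medians of -0.44 to -0.34, mitotic medians of 0.67 to 0.92 and differences of -1.33 to -1.13. The causes were not tested.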
